A study of Mus musculus with 24 samples.

Results

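The genes described here encode axonemal dynein arms and the structures around them. They were all genes whose symbol begins with Dnah, Dnai, Dnal, Drc, Cfap or Dnaaf followed by a digit (or Dnali), and whose deposited level, in TPM (transcripts scaled to a common library total), averaged at least 1 over the round spermatid libraries. Of 55364 genes in the round spermatid tables, 57 matched the name pattern and 53 passed the level, and these 53 are the members. Just above the minimum were Dnah9 at 1.10 TPM and Dnah7c at 6.55 TPM, and just below it Cfap97d2 at 0.508 TPM and Dnah5 at 0.260 TPM. Dnah11 at 0.178 TPM and the antisense gene Dnah2os at 0.035 TPM were the other pattern matches left out. No Dnai gene matched in the annotation used, and whether it carries the intermediate chains under other symbols was not tested.

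The axoneme is the microtubule core of motile cilia and of the sperm tail. Outer and inner dynein arms, built from very large heavy chains with intermediate and light chains, are assembled in the cytoplasm with dedicated assembly factors and then docked on the doublet microtubules, where they drive sliding. The nexin-dynein regulatory complex, radial spokes and central apparatus regulate that sliding, and microtubule inner proteins line the doublets from within. Spermatids begin to build the tail at the round stage, and mutations in many of these genes cause immotile or malformed sperm tails.

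The study used mice with a knock-in allele of Ddx4, the germ cell RNA helicase known as Vasa. RNA was sequenced from testes dissociated by a digestion in 2 steps. Round spermatid libraries came from homozygous knock-in, heterozygous knock-in and wild-type mice, 2 libraries each, made from 1 ug of total RNA with an NEBNext Ultra kit. A second set, labelled CB without the abbreviation being spelled out and with germ cells as the cell type, held 3 homozygous and 3 heterozygous libraries, made from 25 ng of RNA with a strand-specific Hieff kit without poly(A) selection or ribosomal RNA depletion. CB RNA of wild-type mice is not part of the comparisons. The labels do not state the tag, the animals' ages or whether libraries of a group came from separate animals, so p-values measure the spread between libraries, which may be technical. Ddx4 itself was at 121 and 130 CPM (counts scaled to library size) in homozygous round spermatids, 406 and 403 CPM in heterozygous and 443 and 521 CPM in wild-type ones. In CB RNA it was at 303, 306 and 244 CPM in homozygous and 277, 312 and 365 CPM in heterozygous libraries.

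Libraries held 15312153 to 24886664 estimated counts in round spermatids and 14205962 to 16474872 in CB RNA. One library stood apart. In wild-type round spermatid library 1, genes with transcripts under 1000 bases took 20.2% of counts, against 11.2% to 12.7% in the other 5 round spermatid libraries, and genes with transcripts over 8000 bases took 0.406%, against 0.885% to 1.13%. Since dynein heavy chains have some of the longest transcripts, each wild-type comparison of the members below is followed by values without that library. Calls of marker and pathway lists are given with all libraries only. Of the CB libraries, heterozygous library 1 differed most from its fellows. In bulk RNA, fewer cells of a type and less RNA per cell cannot be told apart.

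Promoters from RefSeq (GRCm38.p6), spanning 250 bases before to 50 after the start, were matched for 44 of the 53 members. RFX transcription factors, regulators of ciliary genes, bind the X-box, whose core GTTGCC was searched on both strands. It was found in 16 of the 44 members, or 36.4%, against 3821 of 27025 genes, or 14.1%. A full X-box, searched as GTTNCC, 2 bases and GGNAAC on both strands and overlapping the core where N fits, was found in 1 member, Cfap298, at 188 bases before the start. It was in 143 of all genes with a promoter, or 0.529%. A match is a description of letters and not a binding site. The 3 promoters shown are that of Cfap298, of Drc1, whose CB level differed between genotypes below, and of Cfap300, the member with the highest homozygous over heterozygous ratio in round spermatids. Capitals mark the cores and, in Cfap298, the full motif with its spacer. Cfap298 (chr16:90934800-90935099, minus strand) has a second pair of cores nearer the start, and Drc1 (chr5:30281143-30281442, plus strand) and Cfap300 (chr9:8042826-8043125, minus strand) have 1 core each.
Cfap298: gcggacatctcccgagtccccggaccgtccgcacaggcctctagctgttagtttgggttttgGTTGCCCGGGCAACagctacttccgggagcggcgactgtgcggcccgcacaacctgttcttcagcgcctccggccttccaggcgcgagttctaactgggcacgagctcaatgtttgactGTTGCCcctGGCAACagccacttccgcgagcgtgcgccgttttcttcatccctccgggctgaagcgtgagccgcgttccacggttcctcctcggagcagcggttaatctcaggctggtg
Drc1: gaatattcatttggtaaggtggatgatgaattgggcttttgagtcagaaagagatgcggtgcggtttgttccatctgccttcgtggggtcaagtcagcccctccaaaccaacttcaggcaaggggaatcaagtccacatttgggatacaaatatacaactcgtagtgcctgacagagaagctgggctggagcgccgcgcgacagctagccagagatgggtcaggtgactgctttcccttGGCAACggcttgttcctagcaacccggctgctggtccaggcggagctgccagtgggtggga
Cfap300: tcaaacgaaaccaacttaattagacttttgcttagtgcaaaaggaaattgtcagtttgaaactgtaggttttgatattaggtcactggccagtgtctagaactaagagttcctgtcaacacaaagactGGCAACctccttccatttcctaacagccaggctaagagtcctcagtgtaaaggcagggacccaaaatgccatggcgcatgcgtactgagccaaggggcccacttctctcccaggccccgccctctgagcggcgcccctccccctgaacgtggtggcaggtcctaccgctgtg

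In round spermatids, 19 members averaged 100 TPM or more and 14 were under 20 TPM, with a median of 64.6 TPM. Together the members made up 0.604% and 0.619% of TPM in homozygous libraries, 0.633% and 0.626% in heterozygous ones, and 0.509% and 0.645% in wild-type ones. The low value is that of wild-type library 1. Small structural genes led and most heavy chains trailed, on this length-corrected scale. Cfap206, a radial spoke component, was highest with a mean of 785 TPM, followed by Dnaaf1, an assembly factor, at 629 TPM, Cfap36 at 508 TPM and Cfap126, the microtubule inner protein also called Flattop, at 429 TPM. Among the heavy chains, Dnah8, an outer arm chain of sperm, averaged 140 TPM and Dnah17, its partner in the sperm outer arm, 31.2 TPM. Their mean transcript lengths in these libraries were 4988 and 13426 bases, so the TPM gap depends on the isoforms to which reads were assigned. In CPM, which is not corrected for length, they averaged 627 and 350 in homozygous libraries. The averages were 661 and 436 CPM in heterozygous and 420 and 243 CPM in wild-type libraries. The 10 inner arm chains ranged only between 6.55 TPM for Dnah7c and 27.0 TPM for Dnah3. Dnah9, Dnah5 and Dnah11, the outer arm chains known from respiratory cilia, were the 3 lowest of the named chains. The light chains Dnal4, Dnali1 and Dnal1 averaged 176, 151 and 45.7 TPM. Dnah7a, Dnah7b and Dnah7c are near-identical copies, so the split of reads between them is uncertain. The span of 29 members overlaps that of another RefSeq gene, Dnah17 and Pgs1 for example. Exons and strand were not compared, so whether such pairs share reads was not tested. Reads from any overlapping exons on opposite strands were not separable where the kit does not mark strand.

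**Figure D1:**
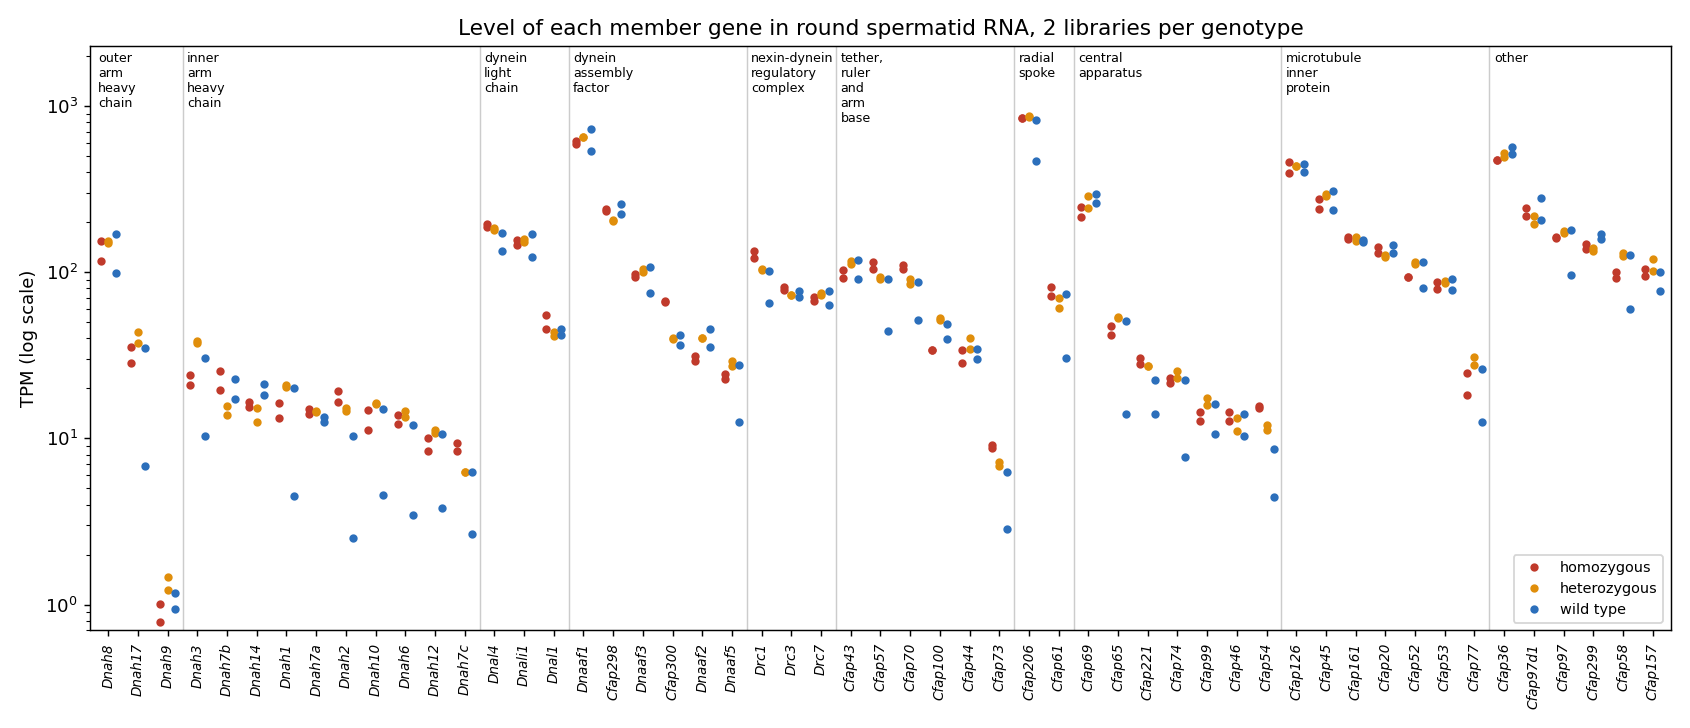
Level of each of the 53 members in every round spermatid library (TPM, log scale), grouped by role and ordered by mean level within a role; red, homozygous; orange, heterozygous; blue, wild type, each point 1 library. Among heavy chains Dnah8, at a mean of 140 TPM, stands above the rest on this scale, with a mean transcript length of 4988 bases. The lower wild-type point of most long genes is library 1.

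The spread between the paired libraries of a genotype set the limits of every round spermatid comparison. Over the 53 members, the log2 ratio of library 1 to library 2 had a median absolute size of 0.12 in the homozygous pair, 0.04 in the heterozygous pair and 0.57 in the wild-type pair. Over all 17809 genes tested those sizes were 0.13, 0.13 and 0.38. In the wild-type pair the ratio tracked transcript length, with a Spearman rho of -0.80 over the members and -0.66 over all genes, a description across genes of the same libraries. Dnah17 was at 94.3 CPM in wild-type library 1 and 392 CPM in library 2. Dnah8 was at 191 and 649 CPM in the same order. The low library is library 1 for both, and 14 members were lower in library 1 than in library 2 by more than 1 on the log2 scale, 7 of the 10 inner arm chains, 2 outer arm chains, 4 central apparatus genes and Cfap61. In the opposite direction, Cfap97d1, with a mean transcript of 689 bases, was at 124 CPM in library 1 and 66.2 CPM in library 2. The homozygous pair showed a smaller trend of the same sign (rho -0.73 over the members, -0.20 over all genes).

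**Figure D2:**
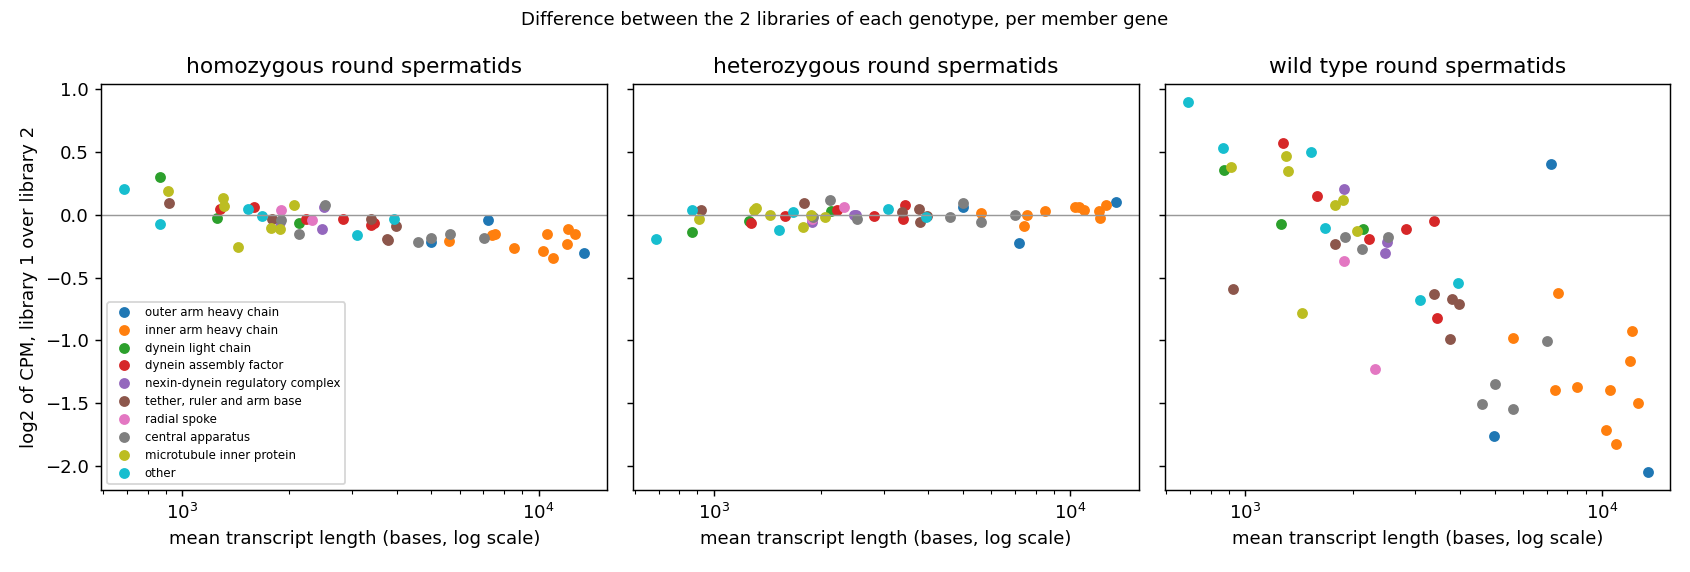
Difference between the 2 libraries of each genotype for every member (log2 of CPM, library 1 over library 2) against mean transcript length in bases (log scale), coloured by role; panels from left, homozygous, heterozygous and wild type. Wild-type points slope down to -2.05 at Dnah17, whereas homozygous points stay between -0.34 and 0.31 and heterozygous points between -0.22 and 0.12.

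The homozygous knock-in was compared with wild type in round spermatids to ask whether the allele moved these transcripts. None of the 53 members passed an adjusted p of 0.05 (edgeR quasi-likelihood test, Benjamini-Hochberg over all genes), where 2.86% of all genes did. At an unadjusted p under 0.05 there were 17 members, 10 higher and 7 lower in homozygous cells, where 22.7% of all genes were, and DESeq2 called 3 members and 7.04% of all genes. For DESeq2, here and below, all genes means those it gave an adjusted p, 16130 to 29111 by comparison. The members' median log2 change was 0.11, and that of all genes was -0.00. Without wild-type library 1 the members' median was -0.07, with 24 members positive and 29 negative. With the length trend removed it was -0.04. All 10 inner arm heavy chains had a positive change, with a median of 0.59. Without wild-type library 1 only 6 of the 10 were positive, with a median of 0.08, and with the length trend removed 7 were.

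Most of the widest positive differences sat on long genes. Dnah2, a heavy chain of the inner arm that carries a pair of them, was at 137 and 167 CPM in homozygous libraries, 107 and 103 CPM in heterozygous ones, and 29.6 and 98.2 CPM in wild-type ones. Its homozygous libraries lay above all others, and wild-type library 1 lay far below library 2, which was near the heterozygous values. The log2 change against wild type was 1.25 ± 0.50 (SE; edgeR adjusted p = 0.21). Cfap54, a central apparatus protein, was at 80.1 and 90.9 CPM in homozygous, 65.4 and 65.6 CPM in heterozygous, and 27.2 and 55.0 CPM in wild-type libraries. The 3 genotypes did not overlap, and the log2 change was 1.05 ± 0.31 (adjusted p = 0.13, edgeR). Dnah7c, Dnah7b and Cfap73, a protein of the inner arm base, followed with 0.85, 0.84 and 0.79. Without wild-type library 1 these 3 were at 0.45, 0.42 and 0.49. Cfap73 is not a long gene, with a mean transcript of 921 bases. Its level was low, between 1.96 and 4.68 CPM in the round spermatid libraries.

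The widest negative difference was that of Dnaaf2, which helps fold heavy chains with HSP90 before they are docked. It was at 75.8 and 80.0 CPM in homozygous libraries, 101 and 103 CPM in heterozygous ones, and 115 and 119 CPM in wild-type ones. The genotypes did not overlap and the wild-type libraries were close to each other here. The log2 change against wild type was -0.59 ± 0.11 (edgeR adjusted p = 0.055), just short of the threshold. Cfap299, Cfap36, Cfap97d1 and Cfap45, a microtubule inner protein, had log2 changes of -0.47, -0.44, -0.43 and -0.37. Without wild-type library 1 Cfap299, Cfap36 and Cfap45 were at -0.18, -0.17 and -0.33, and Cfap97d1 changed sign to 0.088. All 7 microtubule inner protein genes had a negative change, with a median of -0.22. With the length trend removed, 6 of the 7 were negative, and without wild-type library 1, 5 were.

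With all libraries 0 members were called, though 2.86% of all genes were, and leaving out wild-type library 1 changed the member calls. The single wild-type library left is then assumed to vary like the other groups. Of the 53 members, 28 passed, 9 higher and 19 lower in homozygous cells, where 26.4% of all genes passed. Cfap300, an assembly factor, rose by 0.65 ± 0.09 on the log2 scale (SE; edgeR adjusted p = 1.52e-05). Cfap54 rose by 0.63 and Dnah2 by 0.63. Dnaaf2 fell by 0.62 ± 0.07 (edgeR adjusted p = 2.66e-06), Cfap100, of the inner arm base, by 0.48, and Cfap58 by 0.42. Leaving out library 2 in its place gave 45 calls, 31 higher and 14 lower, where 45.1% of all genes passed, with all 10 inner arm chains among the higher. For some chains the sign differed with the wild-type library used: Dnah3 was at -0.33 without library 1 and 1.06 without library 2, and Dnah1 at -0.31 and 1.11 in the same order. Dnah2, Dnah7b and Dnah7c passed as higher in homozygous cells with either library left out.

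Homozygous and heterozygous round spermatids were also compared, a contrast that holds no wild-type library and shares its homozygous libraries with the comparison above. Again 0 of 53 members passed the edgeR test, where 1.73% of all genes did. At an unadjusted p under 0.05 there were 4 members, where 16.7% of all genes were, and DESeq2 called 1 member and 4.1% of all genes. The median log2 change of the members was -0.08, and that of all genes was -0.00. Lower values were the more common: in 25 members, or 47.2%, both homozygous libraries were below both heterozygous ones, and in 14, or 26.4%, both were above. Over all genes those shares were 32.0% and 32.6%.

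Cfap300 had the largest positive difference. It was at 72.3 and 69.2 CPM in homozygous libraries, 42.1 and 42.4 CPM in heterozygous ones, and 49.98 and 45.0 CPM in wild-type ones. The homozygous libraries were above all 4 others, and libraries within a genotype were close. The log2 change over heterozygous cells was 0.74 ± 0.13 (edgeR adjusted p = 0.0535), which missed the threshold, and DESeq2 called it. Its transcript is short, at a mean of 1587 bases, and 1 isoform held 99.5% of its round spermatid TPM. Dnah2, Dnah7c, Dnah7b and Cfap54 came next with 0.54, 0.47, 0.40 and 0.38, so these long genes stood above heterozygous as well as wild-type values.

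At the other end was Dnah3, a single-headed inner arm chain. It was at 150 and 180 CPM in homozygous libraries, 261 and 255 CPM in heterozygous ones, and 79.7 and 207 CPM in wild-type ones. The homozygous values lay below the heterozygous ones and between the wild-type ones. The log2 change over heterozygous cells was -0.65 ± 0.40 (edgeR adjusted p = 0.50). Cfap100 was at 43.9 and 44.9 CPM in homozygous libraries, 66.8 and 62.6 CPM in heterozygous ones and 52.6 and 61.8 CPM in wild-type ones, with the homozygous libraries below all others. Its log2 change over heterozygous cells was -0.54 ± 0.14 (edgeR adjusted p = 0.128). Dnah1, whose loss shortens the sperm tail, had -0.43, Cfap58 -0.42 and Dnah9 -0.40.

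The spread estimated from all 6 libraries includes that of the wild-type pair. Fitted on the homozygous and heterozygous libraries alone, the same log2 changes gave 27 members past the threshold, 10 higher and 17 lower, where 32.3% of all genes passed. Leaving out wild-type library 1 also gave 27, where 30.1% of all genes passed. Without wild-type library 1, the 10 higher members were Cfap300, Dnah2, Dnah7c, Dnah7b, Cfap54, Drc1, Cfap70, Cfap298, Cfap57 and Cfap221. The 17 lower ones included 4 inner arm chains (Dnah3, Dnah1, Dnah10 and Dnah12), the outer arm chain Dnah17, 3 assembly factors (Dnaaf2, Dnaaf5 and Dnaaf1) and 3 microtubule inner proteins (Cfap77, Cfap52 and Cfap45). Inner arm chains thus stood on both sides, 3 higher and 4 lower, and so did central apparatus genes, 2 higher and 3 lower. With the length trend removed and all libraries kept, 5 rose (Cfap300, Dnah7c, Cfap54, Dnah7b and Drc1) and 2 fell (Cfap100 and Cfap52), where 9.84% of all genes passed.

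Heterozygous and wild-type round spermatids gave 0 calls over all genes and 0 over the members by edgeR, with a background of 0.0%. At an unadjusted p under 0.05 there were 2 members, both lower, where 7.28% of all genes were, and DESeq2 called 0 members and 0.0172% of all genes. The members' median log2 change was 0.19 and that of all genes -0.01. All 10 inner arm chains were positive with a median of 0.64, from Dnah7c at 0.38 to Dnah10 at 0.89. Without wild-type library 1, 9 of the 10 were positive with a median of 0.11, Dnah7c was at -0.01 and Dnah10 at 0.24. With the length trend removed, 7 were positive with a median of 0.16. Dnah10 was at 156 and 152 CPM in heterozygous libraries and at 36.2 and 130 CPM in wild-type ones, with wild-type library 1 the low one. Without that library the members' median was 0.01, and only Dnaaf1 passed, at -0.19 (edgeR adjusted p = 0.038), where 0.863% of all genes did.

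**Figure D3:**
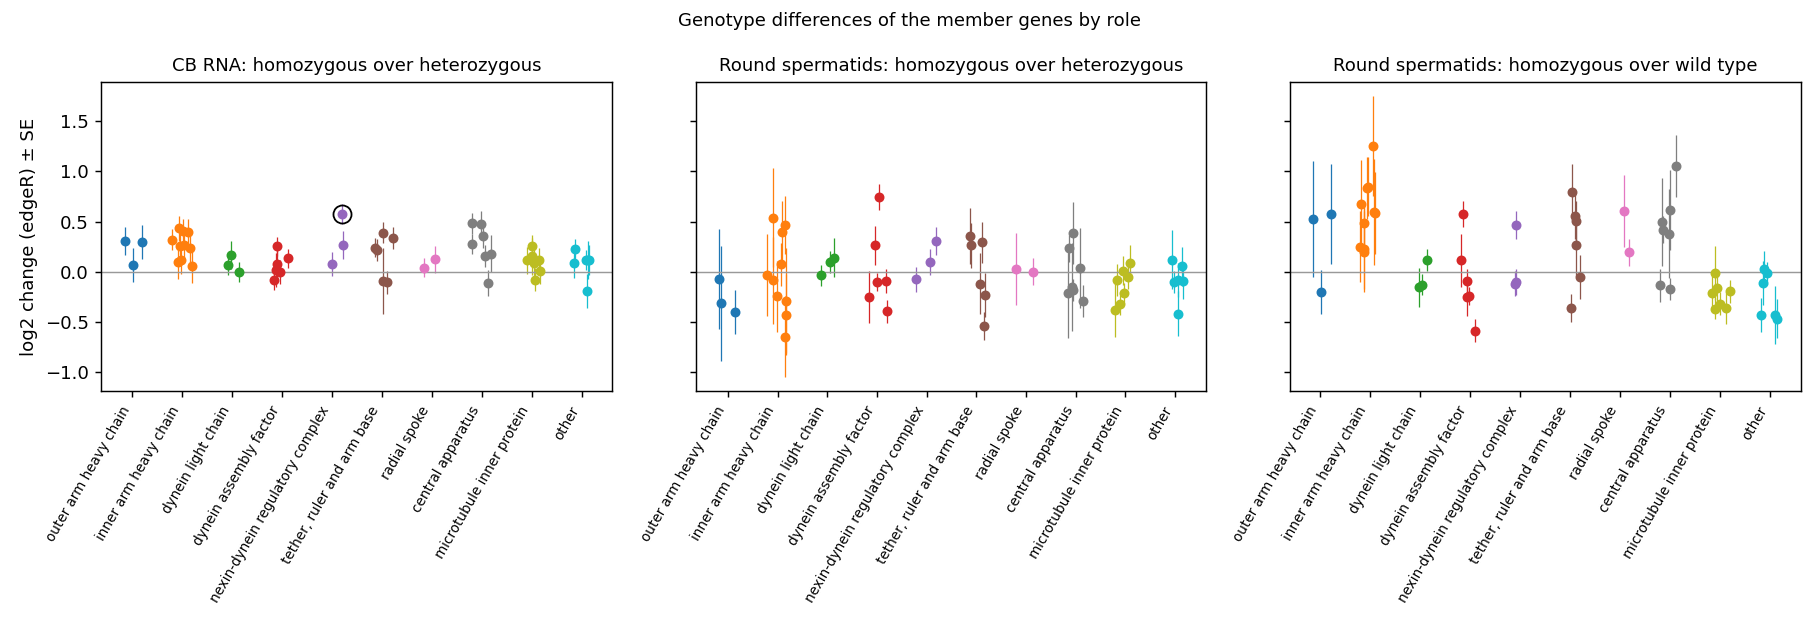
log2 change of every member with its SE, by role, for homozygous over heterozygous CB RNA, homozygous over heterozygous round spermatids and homozygous over wild-type round spermatids; a ring marks a member past an adjusted p of 0.05. Drc1 in CB RNA, at 0.57, is the ringed point, and the heavy chains have the widest error bars in round spermatids.

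In CB RNA the members leaned towards higher values in homozygous libraries. Of the 53, 45 had a positive log2 change, with a median of 0.13, against -0.00 over all genes. One passed the edgeR test, where 1.72% of all genes passed in either direction and 1.16% were higher. At an unadjusted p under 0.05 there were 15 members, all higher, where 14.5% of all genes were in either direction. DESeq2 called 5 members, all higher, where 3.32% of all genes were called and 2.22% were higher. All 3 homozygous libraries were above all 3 heterozygous ones for 21 members, or 39.6%, where 11.5% of all genes were, and the reverse held for Cfap97d1 alone, or 1.89%, where 9.78% of all genes did. The members took 1.10%, 1.08% and 1.15% of TPM in homozygous libraries and 0.805%, 0.920% and 0.912% in heterozygous ones. Genes with transcripts over 8000 bases took 9.21% to 9.63% of counts in homozygous libraries and 7.52% to 8.42% in heterozygous ones, and over the members the log2 change rose with length with a Spearman rho of 0.49 (0.17 over all genes). In a fit with the length trend removed, 41 of 53 members were positive with a median of 0.12 and Drc1 was again the called member, where 1.42% of all genes passed.

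Drc1, the scaffold of the nexin-dynein regulatory complex, was the member that rose. It was at 224, 218 and 229.8 CPM in homozygous CB libraries and at 137, 160 and 154 CPM in heterozygous ones. Every homozygous library was above every heterozygous one. The log2 change was 0.57 ± 0.10 (SE; edgeR adjusted p = 0.0191). Leaving out heterozygous library 2 or 3 or any homozygous library ended the call, with edgeR adjusted p-values between 0.0548 and 0.143, and so did the replicate block, with 0.0776 (0.0878 with the length trend removed as well), whereas without heterozygous library 1 the change was 0.50 and the adjusted p = 0.000774. In round spermatids Drc1 was at 221 and 239.9 CPM in homozygous libraries, 186 and 187 CPM in heterozygous ones and 149.9 and 185 CPM in wild-type ones, in the same direction, and did not pass there (log2 0.31 ± 0.14 over heterozygous cells, edgeR adjusted p = 0.33). Its promoter, printed above, holds 1 core. Drc3 and Drc7, of the same complex, had CB log2 changes of 0.27 and 0.08.

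**Figure D4:**
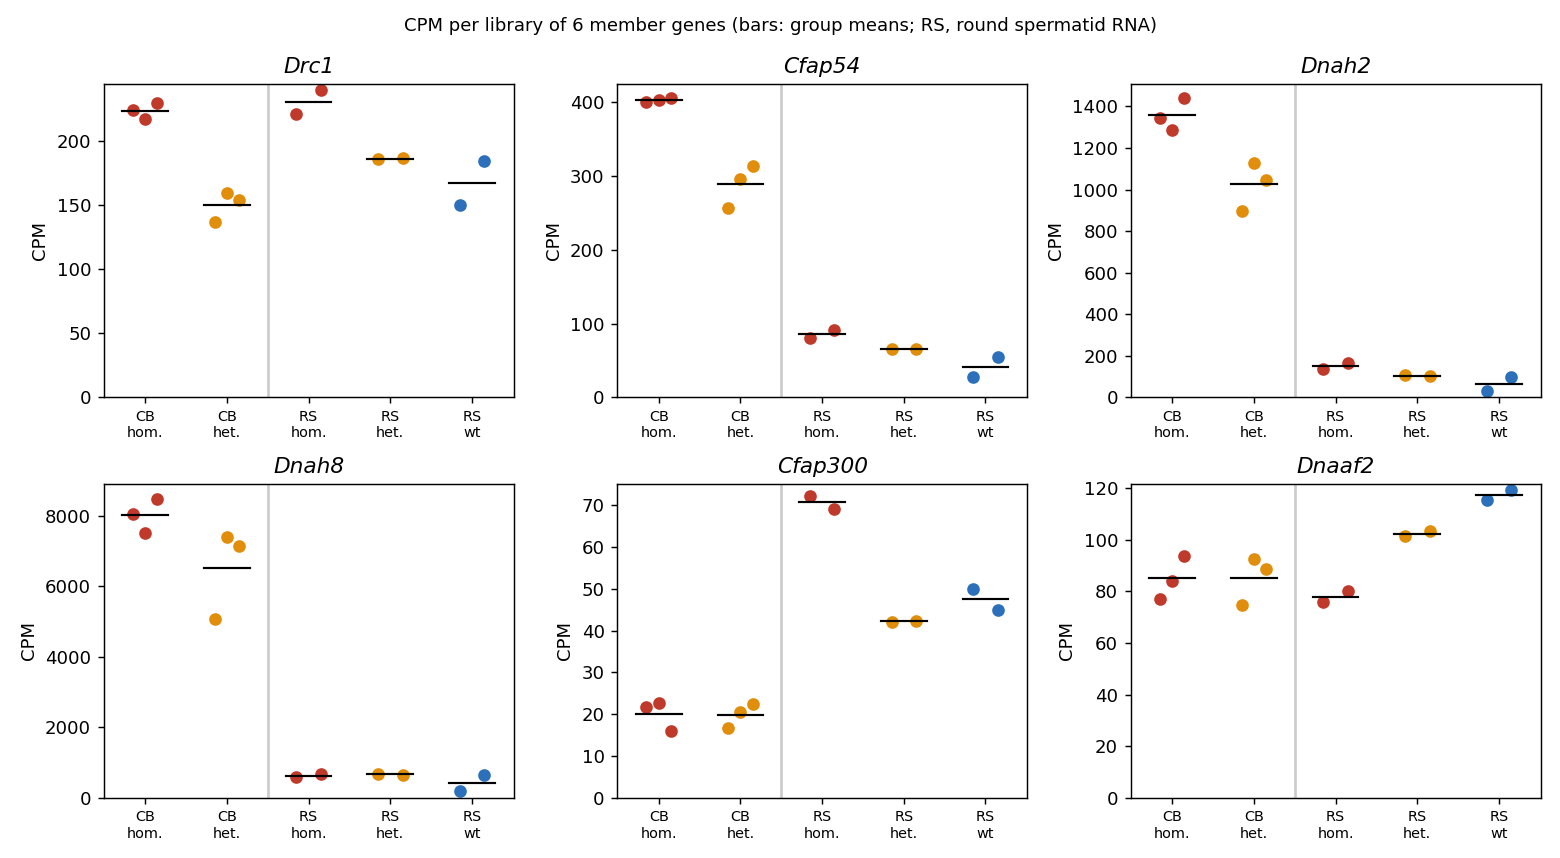
CPM of 6 members in each CB library (left of the grey line: homozygous, heterozygous) and each round spermatid library (right: homozygous, heterozygous, wild type); points are libraries, bars are group means, and each axis starts at 0. Homozygous libraries are above heterozygous ones in both RNA sets for Drc1, Cfap54 and Dnah2. Cfap300 and Dnaaf2 overlap between genotypes in CB RNA but not in round spermatids, and Dnah8 shows the low wild-type library.

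Cfap54 came closest behind. It was at 401, 403 and 406 CPM in homozygous CB libraries and 257, 296 and 314 CPM in heterozygous ones. The groups did not overlap, and the log2 change was 0.48 ± 0.11 (edgeR adjusted p = 0.0538). Dnah2 was at 1347, 1284 and 1439 CPM in homozygous and 899, 1128 and 1047 CPM in heterozygous CB libraries, again without overlap, with a log2 change of 0.40 (edgeR adjusted p = 0.148). Cfap221, a central apparatus protein, and Dnah10 had 0.48 and 0.43. The lowest members were Cfap97d1 at -0.20, Cfap69 at -0.12, Cfap100 at -0.11, Cfap73 at -0.10 and Dnaaf3 at -0.09.

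By role, all 10 inner arm chains were positive in CB RNA with a median of 0.26, the 3 outer arm chains with 0.30, and 6 of 7 central apparatus genes with 0.27. With the length trend removed, 7 of the 10 inner arm chains were positive with a median of 0.087, 2 of the 3 outer arm chains with 0.12, and 6 of the 7 central apparatus genes with 0.21. Heterozygous CB library 1 held low values for the long genes. Dnah8 was at 8044, 7502 and 8480 CPM in homozygous libraries and 5059, 7384 and 7138 CPM in heterozygous ones; the first heterozygous value is the low one, and the others lie below all homozygous values by less. Without that library 7 of the 10 inner arm chains were positive, with a median of 0.11, and 2 of the 3 outer arm chains with 0.13, while Dnah3 was at -0.14. Of all 53 members, 36 were then positive and 17 negative, with a median of 0.13. In that fit 14 members passed, all higher in homozygous CB RNA, where 11.0% of all genes passed and 7.09% were higher. These were Drc1, Cfap54, Dnah2, Dnah10, Dnah7a, Dnah7b, Cfap57, Cfap44, Cfap46, Cfap221, Cfap58, Cfap53, Cfap298 and Dnaaf1, with log2 changes between 0.25 and 0.50.

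Markers of other stages and cell types differed with genotype in the same libraries. Over all genes, 1.72% were called in CB RNA in either direction. In round spermatids 2.86% were called in homozygous over wild type, 1.73% in homozygous over heterozygous and 0.0% in heterozygous over wild type. In CB RNA, 7 of 17 elongating spermatid markers fell and none rose in homozygous libraries, with a summed level of 6608 to 6866 CPM in homozygous and 8428 to 9416 CPM in heterozygous libraries. In round spermatids 0 of those 17 passed in any comparison, but the summed level was 25386 to 25550 CPM in homozygous, 26670 to 26934 CPM in heterozygous and 27398 to 37330 CPM in wild-type libraries. In this list, and in the pachytene and round spermatid lists below, the higher wild-type sum was that of library 1. Pachytene and meiotic prophase markers summed to 1747 to 1752 CPM in homozygous round spermatids, 1095 to 1108 CPM in heterozygous and 1215 to 1445 CPM in wild-type ones. Of that sum Tex101 alone held 517 and 487 CPM in homozygous, 26.7 and 26.5 CPM in heterozygous and 33.1 and 25.8 CPM in wild-type libraries. Tex101 was called as higher in homozygous cells against both other genotypes, and Piwil2 against wild type (log2 1.23, edgeR adjusted p = 0.0312). In CB RNA Tex101 rose (log2 1.65) and Syce2 fell (log2 -0.60, edgeR adjusted p = 0.031). There the list summed to 1450 to 1697 CPM in homozygous and 1240 to 1473 CPM in heterozygous libraries, which overlapped. Round spermatid markers summed to 3161 to 3217 CPM in homozygous, 3627 to 3726 CPM in heterozygous and 3783 to 4242 CPM in wild-type round spermatids, with 0 of 14 called. In CB RNA they summed to 571 to 586 CPM in homozygous and 629.7 to 693 CPM in heterozygous libraries, and Spaca1 fell.

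Somatic markers gave a few calls too. The Sertoli, Leydig, peritubular and vascular, and immune lists held 18, 10, 12 and 13 genes. In homozygous over wild-type round spermatids the Sertoli markers Clu and Aard fell and the Leydig marker Insl3, the peritubular and vascular markers Dcn and Acta2 and the immune markers Cd74 and Lyz2 rose. Actg2, of the peritubular and vascular list, fell in homozygous libraries against both other genotypes in round spermatids and in CB RNA, and Cd74 rose in CB RNA. Sertoli markers summed to 49.4 to 50.3 CPM in homozygous, 79.2 to 79.5 CPM in heterozygous and 76.1 to 91.1 CPM in wild-type round spermatids. The peritubular and vascular list summed lower in homozygous round spermatids, opposite to Dcn and Acta2. It was at 186 to 192 CPM, against 264 to 276 CPM in heterozygous and 283.8 to 284.1 CPM in wild-type libraries. Leydig markers summed to 16.7 to 19.1 CPM in homozygous, 10.8 to 12.2 CPM in heterozygous and 7.69 to 10.6 CPM in wild-type ones. Immune markers summed to 49.997 to 50.2 CPM, 37.002 to 37.6 CPM and 23.6 to 27.5 CPM in the same order. Markers of ciliated epithelium, another tissue that builds axonemes, gave 0 of 9 calls in round spermatids and 0 of 10 in CB RNA. They summed to 1805 to 1819 CPM in homozygous, 2068 to 2095 CPM in heterozygous and 2116 to 2152 CPM in wild-type round spermatids, and to 520.3 to 556 CPM in homozygous and 404 to 566 CPM in heterozygous CB libraries. Foxj1 and Tubb4b, which germ cells express too, made up most of their sum, while Krt19 and Pax8 were at 0.21 CPM or less in every library. The part of stage and cell composition in the members' values was not tested.

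Whether the genotype difference itself differed between RNA sets was tested as the homozygous minus heterozygous change in CB RNA less that in round spermatids. By edgeR 0 of 53 members passed, where 0.209% of all genes did. At an unadjusted p under 0.05 there were 5 members, 4 higher and 1 lower, where 8.90% of all genes were, and DESeq2 called 0 members and 0.843% of all genes. The members' median difference was 0.26, and that of all genes 0.06. The largest were Dnah10 at 0.78, Dnah3 at 0.76, Dnah1 at 0.72 and Dnah17 at 0.68, all long genes. Cfap300 had the lowest, -0.67 ± 0.24 (edgeR adjusted p = 0.44): it was at 21.7, 22.8 and 15.9 CPM in homozygous CB libraries and 16.8, 20.5 and 22.4 CPM in heterozygous ones, which overlapped, beside the separate groups in round spermatids.

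Levels in the CB and round spermatid tables differed far more than genotypes did. Kit, input and RNA selection differ between the sets, so their parts and that of the RNA fraction cannot be told apart, and no test was made. The median member was at 114 TPM in CB RNA and 64.6 TPM in round spermatids, and 37 of 53 had the higher mean in CB RNA. Dnah8 averaged 1274 TPM in CB RNA and 140 TPM in round spermatids, and Dnah2 366 and 13.1 TPM in the same order. At the other end, Cfap97d1 averaged 23.1 TPM in CB RNA and 227 TPM in round spermatids, and Cfap126 72.1 and 429 TPM in the same order. Over the 53 members the log2 ratio of CB to round spermatid TPM followed transcript length with a Spearman rho of 0.91, while the levels themselves ranked with a rho of 0.29.

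**Figure D5:**
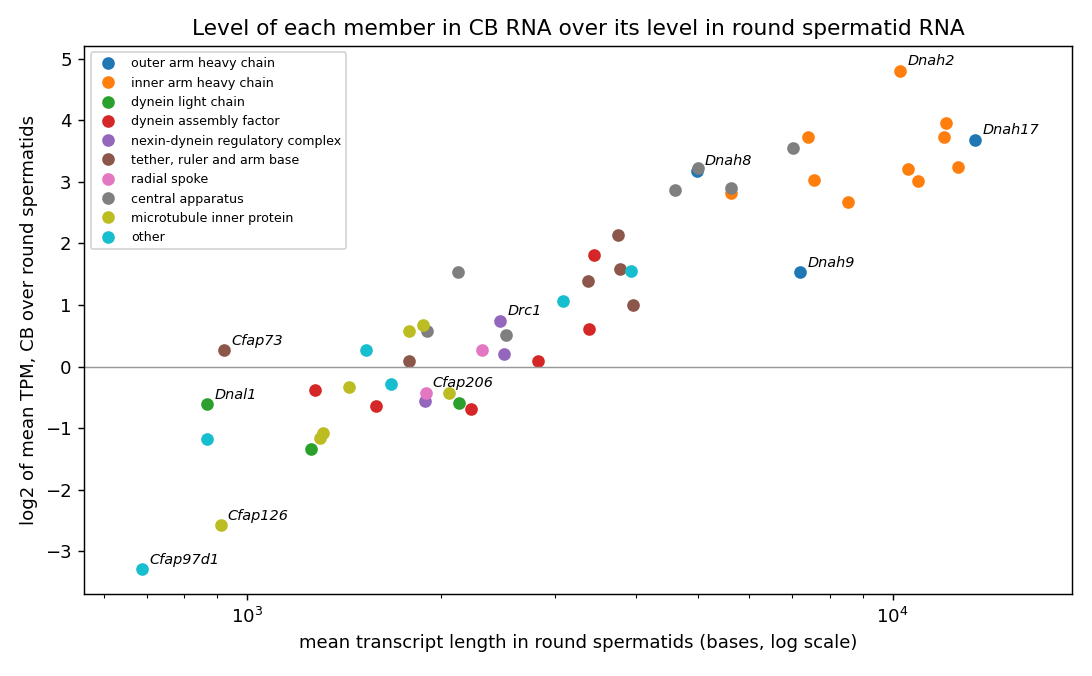
log2 of mean TPM in CB RNA over that in round spermatids for each member, against mean transcript length in round spermatids (bases, log scale), coloured by role. The ratio climbs with length, from Cfap97d1 at the lower left to the heavy chains, with Dnah2 highest.

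The isoforms to which reads were assigned also differed between the RNA sets. Of the Dnah8 TPM, a transcript of 14583 bases held 77.6% in CB RNA and 13.6% in round spermatids, and one of 983 bases held 0.04% in CB RNA and 44.5% in round spermatids. For Dnah7b, a transcript of 12319 bases held 91.0% in CB RNA and 28.5% in round spermatids, and one of 740 bases 3.69% and 55.0% in the same order. For the light chain gene Dnal1, the transcript of 5727 bases held 58.5% in CB RNA and 1.48% in round spermatids, and that of 790 bases 29.5% and 97.8%. Dnah17 did not follow, since its transcript of 13612 bases held 97.0% in CB RNA and 96.3% in round spermatids. Of the 4 Drc1 transcripts, that of 2471 bases held 99.9% in CB RNA and 100% in round spermatids. Within round spermatids, the Dnah10 transcript of 14038 bases held 75.1% and 73.4% of TPM in homozygous libraries, 71.4% and 71.1% in heterozygous ones, and 21.4% and 56.5% in wild-type ones, the lowest again in library 1.

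The axonemal genes outside the name pattern gave few calls as well. Lists of docking proteins (7 tested), nexin-dynein complex and ruler proteins under other names (10), other assembly factors (15), other central apparatus genes (13), tektins and further inner proteins (20), intraflagellar transport (29) and transcription regulators (13) had 0 calls in each of the 4 genotype comparisons. Over all genes, 2.86% were called in homozygous over wild-type and 1.73% in homozygous over heterozygous round spermatids. The shares were 0.0% in heterozygous over wild-type round spermatids and 1.72% in CB RNA. At such shares, lists of this size would hold few calls or none. Only the radial spoke list, of 16 genes, had any, and these were Rsph3a and Rsph3b. They are near-identical copies of a spoke stalk gene whose reads cannot be assigned with certainty. Rsph3a was at 288, 256 and 294 CPM in homozygous CB libraries and 200.5, 181 and 173 CPM in heterozygous ones. In round spermatids it was at 611 and 606 CPM in homozygous, 360 and 359 CPM in heterozygous and 405 and 402 CPM in wild-type libraries. All homozygous libraries were above the rest of their set. The log2 changes of Rsph3a were 0.60 in CB RNA, 0.76 over heterozygous and 0.59 over wild-type round spermatids, with edgeR adjusted p-values of 0.021, 0.0262 and 0.0337. Rsph3b rose by 0.71 in CB RNA and by 0.90 over heterozygous round spermatids (edgeR adjusted p = 0.0086 and 0.029). Hydin, a very long central apparatus gene kept in the radial spoke list and not called, was at 196 and 228 CPM in homozygous, 211 and 199 CPM in heterozygous and 46.6 and 163 CPM in wild-type round spermatids, with wild-type library 1 the low one, as for the heavy chains.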

How the data were processed

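RNA was sequenced from round spermatids (6 libraries) and CB RNA (6 libraries). Reads were trimmed with Trim Galore and the mm10 build was used, per the submitters' processing notes; the sources used here name no aligner or quantifier. Per the file headers, the authors deposited expected counts, TPM and, per transcript, the percent of a gene's TPM held by each isoform. Expected counts were rounded, filtered with edgeR's default expression filter and scaled by TMM. They were tested with edgeR 4.0.16 (quasi-likelihood, Benjamini-Hochberg adjustment over all genes, threshold 0.05) in R 4.3.3, with DESeq2 1.42.0 as an alternative. CPM were computed from these counts. Round spermatid fits held all 6 libraries, CB fits all 6, and the difference between the sets was fitted over 12 libraries. Libraries held 14205962 to 24886664 counts.

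Genes named in the text are members called in any comparison, the 5 highest and 5 lowest log2 changes per comparison, the 2 most abundant members of each role, all dynein chains, members next to the TPM minimum, and called genes of the pathway lists. Members and lists were chosen with earlier results of these data known. Cfap61, Hydin and the called cell type markers were named after their values were seen. The fits were also run on simulated counts. These held no length trend and no outlying library, so that run does not bear on such features of the data. Small RNA files were not used here.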

Additional observations from a re-analysis of the deposited data

How the results depend on the processing

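Counts of calls depended on the spread between libraries. Homozygous against wild-type round spermatids gave 1136 genes with DESeq2, 1692 without a filter, 182 with the replicate block, 2480 with the length trend removed, 2033 with both, and 15 on the compared libraries only; the members called were 3, 5, 11 and 9 with DESeq2, no filter, the length trend removed and that with the block. Homozygous against heterozygous gave 707, 912, 12, 1752, 1260 and 5577 genes under the same settings, and 1, 1, 7, 6 and 27 members with DESeq2, no filter, length, length with the block, and compared libraries. Heterozygous against wild type gave 5 genes with DESeq2 and 6 without a filter. CB RNA gave 558, 882, 163 and 150 genes with DESeq2, no filter, the block, and length with the block, and 5, 4, 0 and 0 members. The difference between sets gave 144, 191, 2 and 93 genes with DESeq2, no filter, the block and length. The members' median against wild type was -0.04 in homozygous cells with length removed and -0.031 with the block too, and 0.022 and 0.023 in heterozygous cells.

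After seeing the data, length removal was combined with leaving out wild-type library 1, giving 5403, 5808, 288 and 163 genes (homozygous over wild type, homozygous over heterozygous, heterozygous over wild type, difference between sets), 32, 29 and 3 members in the first 3, and medians of -0.077 and -0.045 against wild type in homozygous and heterozygous cells. Cfap97d1 then changed sign to 0.016 (homozygous), Dnah2 to -0.061 and Dnah17 to -0.029 (heterozygous). Combined with leaving out heterozygous CB library 1, it gave 2065 genes and 10 members in CB RNA, 285 genes and 3 members for the difference, Cfap69 at 0.023 and Cfap73 at 0.46 (CB) and 0.21 (difference). Cfap73 was at 0.058 with length and block.

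Leaving out 1 library at a time, with a lone library assumed to vary like the other groups, gave 0 to 8488 genes and 0 to 45 members (homozygous over wild type, median -0.072 to 0.40), 0 to 5608 and 0 to 27 (homozygous over heterozygous), 0 to 7901 and 0 to 42 (heterozygous over wild type, median 0.008 to 0.40), 51 to 2213 and 0 to 14 (CB), and 2 to 188 and 0 to 0 (difference). Cfap97d1 ranged between -0.803 without wild-type library 2 and 0.088 without library 1 (homozygous over wild type). Cfap73 ranged between -0.324 and 0.38 in CB RNA and between -0.628 and 0.004 for the difference, without heterozygous CB library 2 and library 1. The causes were not tested.

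Whether replicate numbers pair the samples could not be settled. Same-numbered deviations from the group mean correlated at -0.156, 0.184 and -0.026 in round spermatids and -0.002, -0.215 and -0.168 in CB RNA. With 2 libraries in a group these deviations mirror each other, so the round spermatid values cannot show or exclude pairing. With the replicate block Drc1 in CB RNA had an adjusted p of 0.0776 (edgeR). Round spermatid groups held 2 libraries each, so 1 library could move every wild-type comparison.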
